A study of Mus musculus with 13 samples.

Results

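The genes examined were 54 non-imprinted genes of distal mouse chromosome 12 that lie on either side of the imprinted Dlk1-Dio3 cluster, 18 on the centromeric side from Glrx5 to Wdr25 and 36 on the telomeric side from Ppp2r5c to Crip1. They were chosen by name and place, not by any measured value, though earlier results of these data were known. A gene was represented by the probe set annotated to it alone, and, where it had several, by the one with the highest mean signal over the 13 arrays. Of the 54 genes, 52 had such a probe set, among 18193 named genes on the array. Ccdc85c and Traf3 had none. Degs2, Ankrd9 and Tdrd9 lay below the filter on dim probe sets, with group mean signals of 15.7 to 59.9, which left 49 members among 12918 genes tested.

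Genomic imprinting is the expression of a gene from only the copy inherited from the mother or only the copy from the father. In the Dlk1-Dio3 cluster the protein-coding genes Dlk1, Rtl1 and Dio3 are read from the paternal copy, and the non-coding RNAs Meg3, Rian and Mirg from the maternal copy. The genes outside the cluster are ordinary genes of many functions, from the dynein heavy chain Dync1h1 and the protein kinase Akt1 to the mitochondrial carriers Slc25a29 and Slc25a47. They are linked to the cluster here by their place on the chromosome.

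Whole brains were taken from mouse embryos at embryonic day 18.5, with 1 embryo per Affymetrix array. There were 6 wild-type embryos and 7 Meg3 knock-out embryos from 5 litters. The labels used here name no strain, sex or extent of the Meg3 deletion. Litter 148 held 1 knock-out embryo, knock-out 1, and no wild-type one, and the other 4 litters held both genotypes. What is particular to knock-out 1 cannot be told apart from its litter.

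The targeted gene was low on every array labelled knock-out. Meg3 signals were 3109 at the lowest, 5321 at the median and 6251 at the highest in wild-type brains, and 264, 347 and 589 in knock-out brains. The groups did not overlap, and the log2 change was -3.64 ± 0.20 (SE, limma adjusted p = 1.30e-07). Rian, at -4.05 ± 0.29 (SE, limma adjusted p = 2.75e-06), and Mirg, at -2.46 ± 0.23 (SE, limma adjusted p = 6.49e-05), fell with it, and Dlk1 stood at 0.09 ± 0.21 (SE, limma adjusted p = 1.00). All 10 listed neuron markers and all 8 progenitor and glial markers lay above the filter. Of the markers of other tissues, 4 of 7 skeletal muscle genes and 6 of 7 pituitary and retina genes lay below it, as did 2 of 5 red cell genes and 2 of 5 skin and bone genes. All 8 genes of the meninges and fibroblasts lay above it, with sums of 6560 to 18495 in wild-type and 5354 to 16564 in knock-out brains. Of the 8 choroid plexus genes 7 lay above it, and the list summed to 23095 to 38563 in wild-type and to 9129 to 31985 in knock-out brains, and the part of these cells in the results was not tested. In whole tissue, fewer cells of a type and less RNA per cell cannot be told apart. For Actb, the signal of the 3' control probe set over that of the 5' one, a sign of RNA quality, was 2.92 in wild-type 2 and 1.81 in knock-out 1, against 1.32 to 1.495 elsewhere.

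Some neighbours in the region share more than a chromosome arm, and their sequence is shown because such pairs can be compared directly. In the promoter table, 3 pairs of members start within 496 bases of each other and are read in opposite directions: Atg2b with Gskip, Setd3 with Ccnk, and Xrcc3 with Zfyve21. The starts of Atg2b and Gskip have 110 bases between them. That stretch lies at chr12:105685242-105685351 of GRCm38.p6, as given by RefSeq, and is printed on the plus strand, which reads toward Gskip.
Atg2b-Gskip: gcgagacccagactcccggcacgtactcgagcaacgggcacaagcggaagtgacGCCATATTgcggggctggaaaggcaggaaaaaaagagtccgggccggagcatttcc
The capitals mark the letters GCCATNTT, a core of the motif of YY1, the zinc finger factor whose gene is itself a member. The search used GCCATNTT and its reverse AANATGGC in the 250 bases before each start. The table held 67 windows of 49 listed genes, 44 of them tested. Those letters were found in 5 of the 67 windows (7.46%), against 3.91% of all windows in the table. The 5 genes were Atg2b, Gskip, Eml1, Amn and Mark3, and the windows of Atg2b and Gskip hold the same site. A match describes the letters only.

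Evl, an actin regulator of the Ena/VASP family, hosts a microRNA gene within its span, at chr12:108658620-108658718 on the plus strand. Its mature forms are printed because Evl is described below and the array did not read them. The capitals mark the seed, bases 2 to 8.
mmu-miR-342-5p: aGGGGUGCuaucugugauugag
mmu-miR-342-3p: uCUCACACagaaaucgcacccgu
Their seeds differ. The spans of Aspg and Akt1 also hold microRNA genes, Mir3073a and Mir3073b in Aspg and Mir6939 in Akt1.

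None of the 49 tested members differed between the genotypes past the threshold, where 3 of 12918 genes (0.0232%) did. The count was also 0 of 49 at an unadjusted limma p under 0.05, which 1.97% of all genes reached (1.71% higher and 0.255% lower in knock-out brains), and the lowest adjusted p of any member was 1.00 (limma). Log2 changes ran from -0.21 for Xrcc3 to 0.29 for Cdc42bpb, with standard errors of 0.09 to 0.27. In no member were the groups free of overlap, as they were in 0.0774% of all genes. The 95% interval of the change lay within 2-fold either way for all 49 members, against 97.9% of all genes, and within 1.5-fold either way for 41 of them, against 79.8%. The 8 members with a wider interval were Hhipl1, Wars, Hsp90aa1, Cdc42bpb, Tnfaip2, Aspg, Kif26a and Pacs2. The highest bound was 0.81, for Cdc42bpb, and the lowest was -0.63, for Kif26a. These intervals are on the log2(signal + 16) scale, which understates changes of dim genes such as Tnfaip2, Xrcc3 and Aspg.

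**Figure D1:**
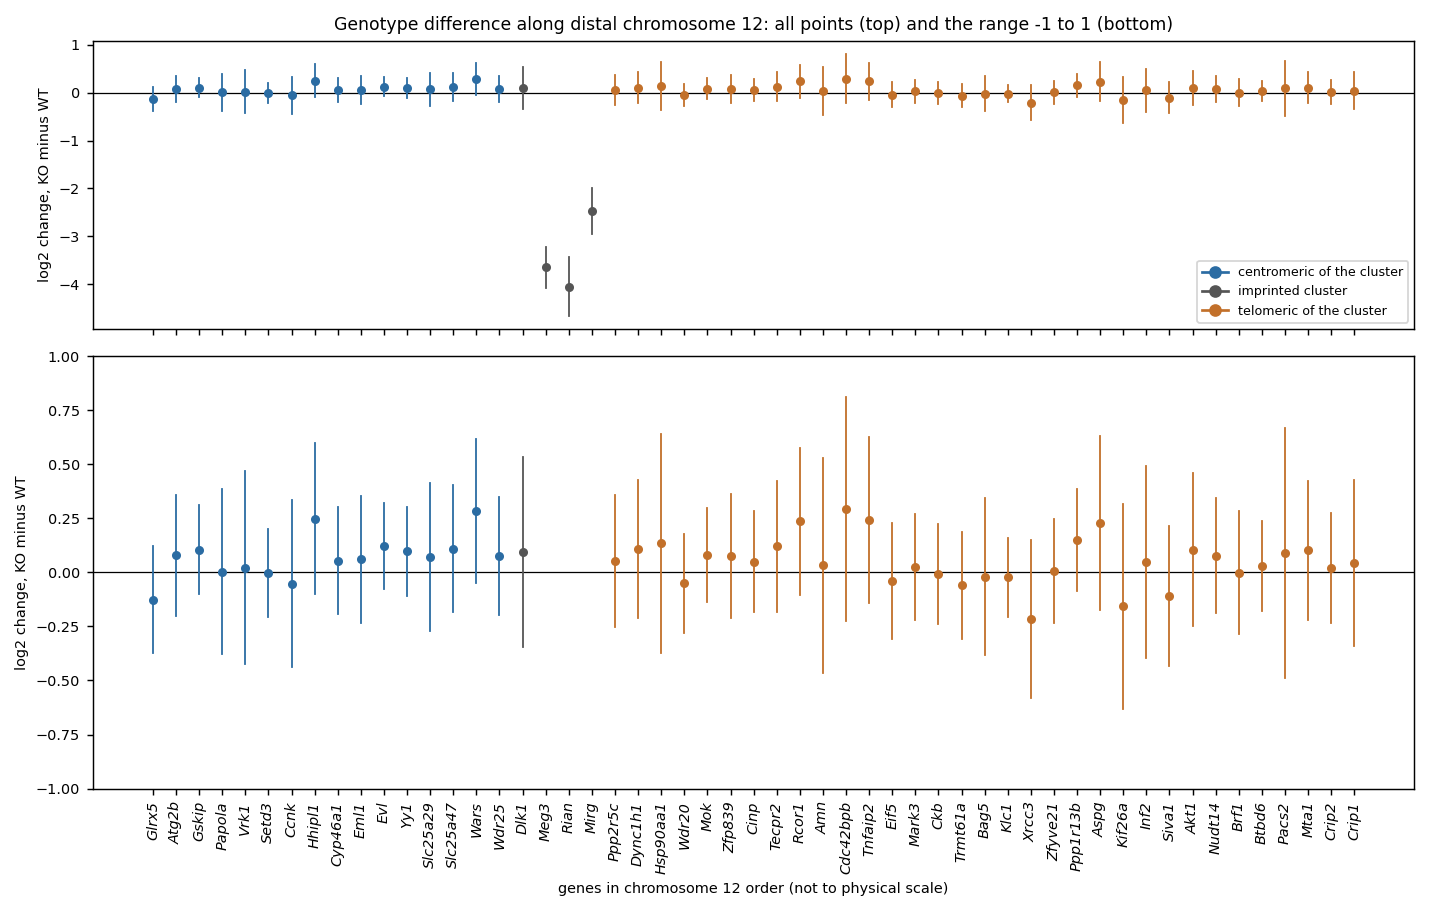
Log2 change (knock-out minus wild-type, points) with its 95% interval (lines) for the 49 tested members and 4 cluster genes in chromosome order; the lower panel shows the range from -1 to 1. Meg3, Rian and Mirg lie between -2.46 and -4.05, and every member on either side lies between -0.21 and 0.29 with an interval that holds 0.

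On the log2 scale, on which all group means are compared here, means were higher in knock-out brains for 36 members and lower for 13 (73.5% higher), and 65.4% of all genes tested were also higher. The median log2 change was 0.05 over the members and 0.04 over all genes, a difference of 0.01. The split depended on scaling: 36.7% of members were higher after quantile normalization, 49.0% after scaling to an equal trimmed mean and 12.2% after median centring, beside 39.2%, 46.8% and 12.3% of all genes. In each of these 3 scalings the members' median lay 0.01 above that of all genes. The signs of single members below are those of the values as deposited.

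**Figure D2:**
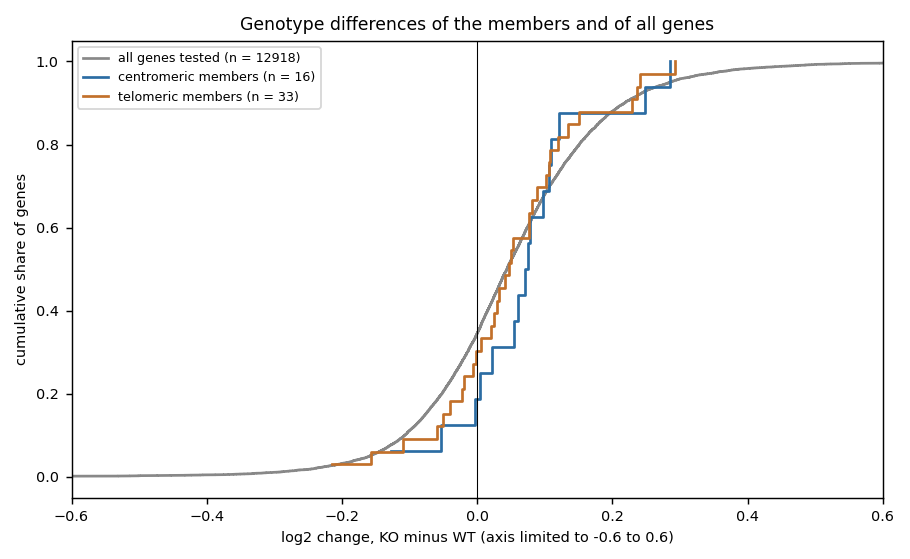
Cumulative share of genes (y axis) by log2 change (x axis, limited to -0.6 to 0.6) for the 16 centromeric members, the 33 telomeric members and all 12918 genes tested. The members' curves end between -0.21 and 0.29 and cross the middle close to that of all genes, with medians of 0.07, 0.05 and 0.04.

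Of the 6 genes for transcription and chromatin, all were tested and 4 had a higher mean. Rcor1, the CoREST corepressor that works with REST and LSD1, had wild-type signals of 564 at the lowest, 669 at the median and 1089 at the highest, and knock-out signals of 694, 769 and 1168. All 7 knock-out arrays lay above the wild-type median, and the groups overlapped, with wild-type 2 the second highest array. Its log2 change was 0.24 ± 0.16 (SE). It was 0.15 without knock-out 1, the highest array, and 0.36 without wild-type 2, at an unadjusted limma p of 0.0170 and an adjusted p of 1.00. The dimmer Rcor1 probe sets gave 0.22 ± 0.30 and 0.02 ± 0.10 (SE) over all arrays. Yy1 had signals of 2508, 2732 and 3127 in wild-type and 2651, 3170 and 3258 in knock-out brains. Of its knock-out arrays 4 lay above every wild-type array and 3 did not exceed the wild-type median, and its log2 change was 0.10 ± 0.10 (SE). All 4 Yy1 probe sets gave nearly the same value, from 0.06 to 0.10. Ccnk, the cyclin of CDK12 and CDK13, stood at -0.05, Mta1 of the NuRD complex at 0.10, Zfp839 at 0.08 and Brf1, a subunit of the RNA polymerase III factor TFIIIB, at -0.0014.

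Among the 4 genes for RNA processing and translation, 2 had a higher mean. Wars encodes the tryptophanyl-tRNA synthetase of the cytoplasm and had the smallest p of the 49 members (0.0874, unadjusted limma). Its signals were 926, 1700 and 1972 in wild-type and 1632, 1801 and 2254 in knock-out brains. Wild-type 2 was the lowest array, and 3 knock-out arrays exceeded the highest wild-type one. The log2 change was 0.29 ± 0.16 (SE, exact permutation p = 0.0897), and ran from 0.14, without wild-type 2, to 0.35, without wild-type 1, when 1 array was left out. The used Wars probe set is of the kind that may bind related transcripts, and the other 3 probe sets gave 0.22 to 0.53. Trmt61a, the catalytic subunit of a tRNA methyltransferase, had signals of 293, 326 and 372 in wild-type and 266, 298 and 438 in knock-out brains. It was lower in knock-out in all 4 litters with both genotypes, with differences of -0.20 to -0.0087, yet its highest value of all was in knock-out 1, and its log2 change was -0.06 ± 0.12 (SE), or -0.13 to -0.02 with 1 array left out. Papola, the poly(A) polymerase, stood at 0.0037 and the initiation factor Eif5 at -0.04.

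The 9 genes of the cytoskeleton and of transport along it were all tested, and 6 had a higher mean. Evl had signals of 8730, 9402 and 10134 in wild-type and 8852, 10143 and 11574 in knock-out brains. Of its knock-out arrays 4 lay above every wild-type array, and the log2 change was 0.12 ± 0.09 (SE, exact permutation p = 0.0921). Its second brightest probe set gave -0.03 and 2 dim ones gave 0.41 and 0.56, so the probe sets of this gene differed in sign. Cdc42bpb, the kinase MRCK beta that acts on actomyosin, had signals of 373, 1105 and 1253 in wild-type and 834, 1058 and 1410 in knock-out brains. The knock-out median lay below the wild-type median, and the log2 change of 0.29 ± 0.24 (SE) ran from 0.05, without wild-type 2, the array with the value of 373, to 0.39, without wild-type 1. Kif26a, an atypical kinesin, had signals of 394, 543 and 896 in wild-type and 394, 461 and 970 in knock-out brains. The highest of these was in knock-out 1, and the log2 change of -0.16 ± 0.22 (SE) ran from -0.31 to -0.03 with 1 array left out and turned to 0.14 without litter 250. The motor genes Dync1h1 and Klc1 stood at 0.11 and -0.02. The others, Eml1, Setd3, Inf2 and Mark3, lay between -0.0035 and 0.06.

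Of 9 signalling genes 8 were tested, and 7 had a higher mean. Ppp1r13b, which encodes the p53-binding protein ASPP1, had signals of 1640, 2231 and 2561 in wild-type and 2150, 2362 and 2546 in knock-out brains. The knock-out values lay inside the wild-type range, and the log2 change was 0.15 ± 0.11 (SE), or 0.08 without wild-type 2 and 0.21 without wild-type 5. Tnfaip2, a TNF-induced gene, was dim, with signals of 42.4, 74.0 and 106 in wild-type and 74.4, 82.1 and 117 in knock-out brains. All 7 knock-out arrays were above the wild-type median, the lowest values were in wild-type 2 and wild-type 6, and the log2 change was 0.24 ± 0.18 (SE), or 0.13 to 0.34 with 1 array left out. Ppp2r5c, a regulatory subunit of protein phosphatase 2A, is the member nearest the cluster on the telomeric side. It had signals of 1841, 2124 and 2540 in wild-type and 1331, 2376 and 2488 in knock-out brains. Knock-out 1 was far below the other knock-out arrays, 6 of which lay above the wild-type median. The log2 change was 0.05 ± 0.14 (SE), and ran from 0.01, without wild-type 1, to 0.17, without knock-out 1. Gskip, a GSK3-binding protein, had signals of 634, 736 and 914 in wild-type and 760, 791 and 897 in knock-out brains. Its 7 knock-out arrays all lay above the wild-type median, and its log2 change was 0.11 ± 0.10 (SE), or 0.06 to 0.16 with 1 array left out. Siva1, a pro-apoptotic adaptor, had signals of 857, 1063 and 1247 in wild-type and 761, 933 and 1471 in knock-out brains. It was the signalling gene with a lower mean, at -0.11 ± 0.15 (SE), though knock-out 2 was the highest of all arrays. With 1 array left out this ran from -0.21 to -0.05, and the mean of its probe sets gave -0.0024. Akt1, Mok and Vrk1 stood at 0.11, 0.08 and 0.02.

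**Figure D3:**
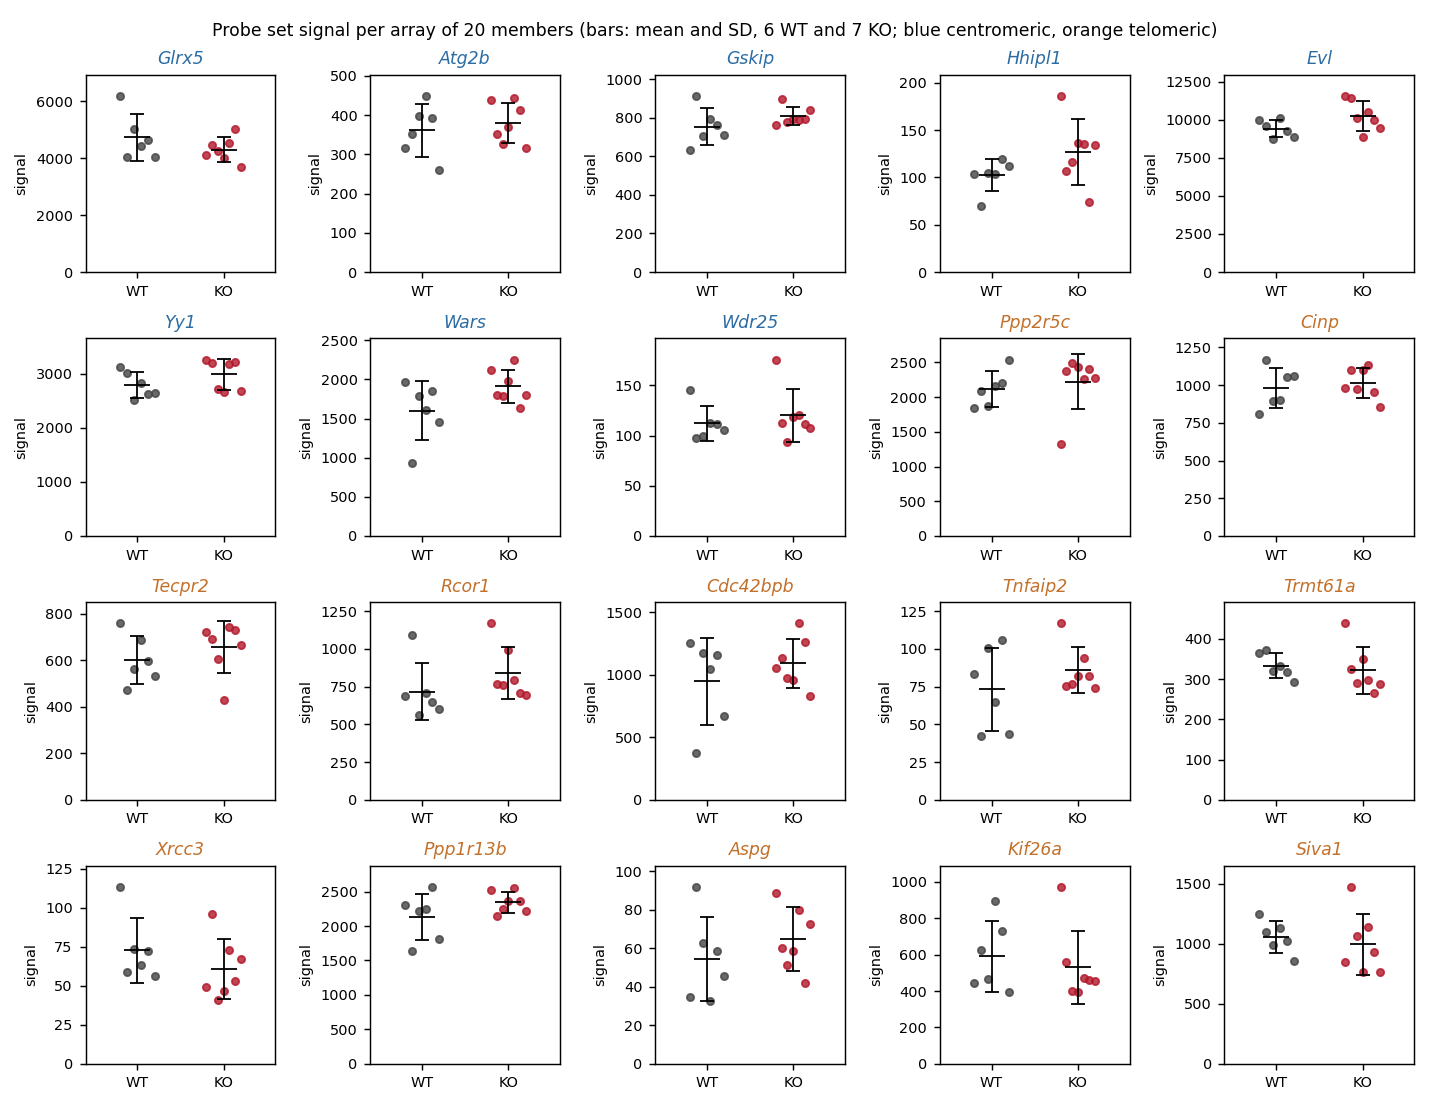
Signal per array (points, linear axis from 0) in 6 wild-type (WT) and 7 Meg3 knock-out (KO) brains for 20 members, with group mean and SD. The ranges overlap in every panel, and single arrays, such as the lowest wild-type array of Hhipl1 or the lowest knock-out array of Ppp2r5c, lie far from their group.

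All 8 genes of protein folding, degradation and membrane traffic were tested, and 6 had a higher mean. Tecpr2, an autophagy and secretory pathway gene, had signals of 471, 580 and 757 in wild-type and 428, 691 and 742 in knock-out brains. Of its knock-out arrays 6 lay above the wild-type median and knock-out 4 was the lowest of all, with a log2 change of 0.12 ± 0.14 (SE), or 0.06 without wild-type 2 and 0.22 without knock-out 4. Atg2b, a lipid transfer protein of autophagosomes, had signals of 260, 373 and 450 in wild-type and 317, 370 and 443 in knock-out brains. Its medians were nearly equal, and its log2 change of 0.08 ± 0.13 (SE) lay beside that of Gskip, 0.11, across the shared start region printed above. The other divergent pairs stood at -0.0035 for Setd3 with -0.05 for Ccnk, and at -0.21 for Xrcc3 with 0.0062 for Zfyve21. The chaperone gene Hsp90aa1 stood at 0.13 ± 0.24 (SE), and Pacs2, Btbd6, Bag5 and Wdr20 lay between -0.05 and 0.09.

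In metabolism 7 of 8 genes were tested, and 5 had a higher mean. Glrx5, a mitochondrial glutaredoxin for iron-sulphur clusters, had signals of 4033, 4543 and 6203 in wild-type and 3689, 4266 and 5041 in knock-out brains. Only 1 knock-out array exceeded the wild-type median, and the log2 change was -0.13 ± 0.12 (SE). With 1 array left out it ran from -0.17 to -0.05, the latter without wild-type 1, the highest array. Aspg, an asparaginase gene, was near the filter with signals of 32.9, 52.1 and 91.7 in wild-type and 41.8, 60.2 and 89.0 in knock-out brains. Its log2 change was 0.23 ± 0.19 (SE), and ran from 0.13, without wild-type 4, the lowest array, to 0.36, without wild-type 2, the highest. The brain creatine kinase Ckb stood at -0.0056, the cholesterol 24-hydroxylase Cyp46a1 at 0.05, and Slc25a47, Slc25a29 and Nudt14 at 0.07 to 0.11.

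Of the 2 DNA repair and replication genes, Xrcc3 had the lowest log2 change of all tested members. Its signals were 56.1, 67.8 and 113 in wild-type and 40.7, 53.1 and 96.3 in knock-out brains. Of its knock-out arrays 4 lay below every wild-type array, and the log2 change of -0.21 ± 0.17 (SE) ran from -0.31, without knock-out 2, to -0.10, without wild-type 1. It was -0.42 after quantile normalization, at an unadjusted limma p of 0.0437 and an adjusted p of 1.00. Cinp, a CDK2-interacting protein, had signals of 811, 977 and 1169 in wild-type and 853, 980 and 1135 in knock-out brains, nearly equal medians with a log2 change of 0.05 ± 0.11 (SE). Of 8 members with other roles 5 were tested, all with a higher mean. Hhipl1, a relative of the hedgehog-interacting protein, had signals of 69.9, 105 and 120 in wild-type and 73.7, 134 and 186 in knock-out brains. Of its knock-out arrays 4 lay above every wild-type array while knock-out 6 was the second lowest of all, and the log2 change was 0.25 ± 0.16 (SE). It was 0.16 without wild-type 2, the lowest array, and also without knock-out 1, the highest, and 0.35 without knock-out 6. Wdr25, a WD repeat gene and the member nearest the cluster on the centromeric side, had signals of 97.6, 109 and 146 in wild-type and 93.7, 113 and 176 in knock-out brains. Its log2 change was 0.08 ± 0.13 (SE), and ran from -0.01, without knock-out 1, its highest array, to 0.14, without wild-type 1. Amn, Crip1 and Crip2 stood at 0.03, 0.04 and 0.02. Over the 20 members whose arrays are given here, exact permutation p-values ran from 0.0897 to 0.759, and none was below 0.05.

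Log2 changes were also set side by side by position. The 16 centromeric members had a median log2 change of 0.07 and the 33 telomeric ones of 0.05, and 13 and 23 of them had a higher mean. Leaving out 1 array at a time, the centromeric median ran from 0.05 to 0.11 and the telomeric one from 0.0009, without wild-type 2, to 0.07. The centromeric median was 0.12 with litter as a block, and the telomeric one was -0.0003 with the Actb ratio as a covariate. Sign and order also moved with scaling. Quantile normalization gave -0.035 for the centromeric and -0.014 for the telomeric members, beside -0.032 for all genes. Median centring gave -0.12 and -0.15, beside -0.15 for all genes. The 5 tested members nearest the cluster had medians of 0.10 on the centromeric and 0.08 on the telomeric side, and the farther ones of 0.05 and 0.04. These are descriptions, and a difference by position was not tested. Another 19 tested genes, neither listed nor imprinted, lie between the first and the last member, and their median was 0.01. All tested genes of chromosome 12 that were neither members nor genes of the imprinted cluster, 407 including those 19, had a median of 0.04. Of the 407, 64.4% were higher, and 0 passed the threshold.

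The members' other probe sets were examined too. Over 100 probe sets of the members above the filter, 0 passed the threshold when 23451 named probe sets were tested, of which 16 passed. Of the 100, 2 (2.00%) had an unadjusted limma p under 0.05, both higher, against 3.17% of all these probe sets. They were the dimmer of 2 probe sets of Setd3, the actin histidine methyltransferase, and the dimmest of 5 probe sets of Eif5. That of Setd3 had signals of 94.3 ± 32.0 (SD, n = 6) in wild-type and 163 ± 84.0 (SD, n = 7) in knock-out brains, and its log2 change of 0.63 ± 0.27 (SE) had a limma adjusted p of 1.00, where the bright probe set had -0.0035. That of Eif5 gave 0.57 ± 0.26 (SE, limma adjusted p = 1.00) where the 4 brighter ones gave -0.04, 0.02, 0.33 and 0.02. Among the 23 members with more than 1 probe set above the filter, the signs differed in 10. Log2 changes of their probe sets ran from -0.0035 to 0.63 in Setd3, from -0.03 to 0.56 in Evl, from -0.04 to 0.57 in Eif5 and from -0.09 to 0.44 in Ppp2r5c. They ran from -0.02 to 0.29 in Klc1, from -0.02 to 0.23 in Hsp90aa1 and from -0.11 to 0.13 in Siva1. In Slc25a29, Wdr20 and Pacs2 the range was narrower, with ends of -0.0023 and 0.11, -0.05 and 0.07, and -0.09 and 0.09. The exon or intron read by each probe set is not reported here.

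The difference between the genotypes varied from litter to litter, each with only 1 or 2 embryos of a genotype. Litter 219 held 2 wild-type and 1 knock-out embryos, litter 238 held 1 and 2, litter 250 held 2 and 2, and litter 262 held 1 and 1. Differences between litters and between single embryos cannot be told apart here. In litter 219 the members' median difference, knock-out minus wild-type, was 0.14 and 37 of 49 members were higher. In litter 238 it was -0.11 and 19 were higher. In litter 250 it was 0.07 with 38 higher, and in litter 262 it was 0.04 with 28 higher. The medians of all genes in these litters were 0.16, -0.04, 0.03 and -0.03. The same sign in all 4 litters was seen for 8 of 49 members, against 11.3% of all genes. Trmt61a was lower in each, and the 7 that were higher in each were Gskip, Evl, Yy1, Slc25a47, Wars, Ppp1r13b and Nudt14. Their within-litter differences varied in size: those of Yy1 were 0.06, 0.10, 0.23 and 0.02, and those of Wars were 0.41, 0.07, 0.15 and 0.30. The Wars value of 0.41 came from litter 219, which held wild-type 2, the lowest Wars array.

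**Figure D4:**
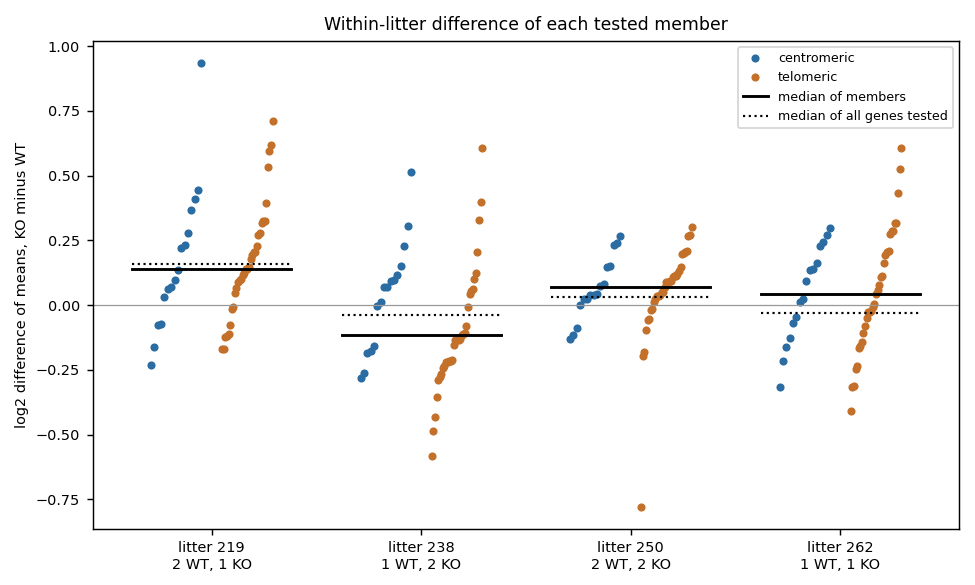
Within-litter log2 difference of means (knock-out minus wild-type, y axis) for each tested member in the 4 litters with both genotypes, with medians of the members (solid) and of all genes tested (dotted). The members' medians run from -0.11 in litter 238 to 0.14 in litter 219.

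A few arrays were at an extreme for many members. Wild-type 2 was the lowest of the 13 arrays for 16 members and the highest for 6, 22 of 49, and 35.8% of all genes had it at an extreme. Wild-type 1 was highest for 15 members and lowest for 5, and its share over all genes is not given here. Knock-out 1 was highest for 13 and lowest for 4, 17 of 49, against 23.9% of all genes. The median deviation of the members from their own means ran from -0.15 in wild-type 6 to 0.14 in knock-out 1. That of all genes was -0.07 and 0.04 in these arrays. In wild-type 1 the median deviation was 0.12 for the members and -0.0063 for all genes. Without wild-type 2 and knock-out 1 together, 57.1% of the members had a higher mean, at a median log2 change of 0.03, and 56.5% of all genes did. When the Actb ratio entered the fit as a covariate, the median was 0.02 and 59.2% were higher. The largest spreads within groups were those of Pacs2 and Cdc42bpb, with residual SDs of 0.55 and 0.49 on the log2 scale, and the smallest was that of Klc1, at 0.09.

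**Figure D5:**
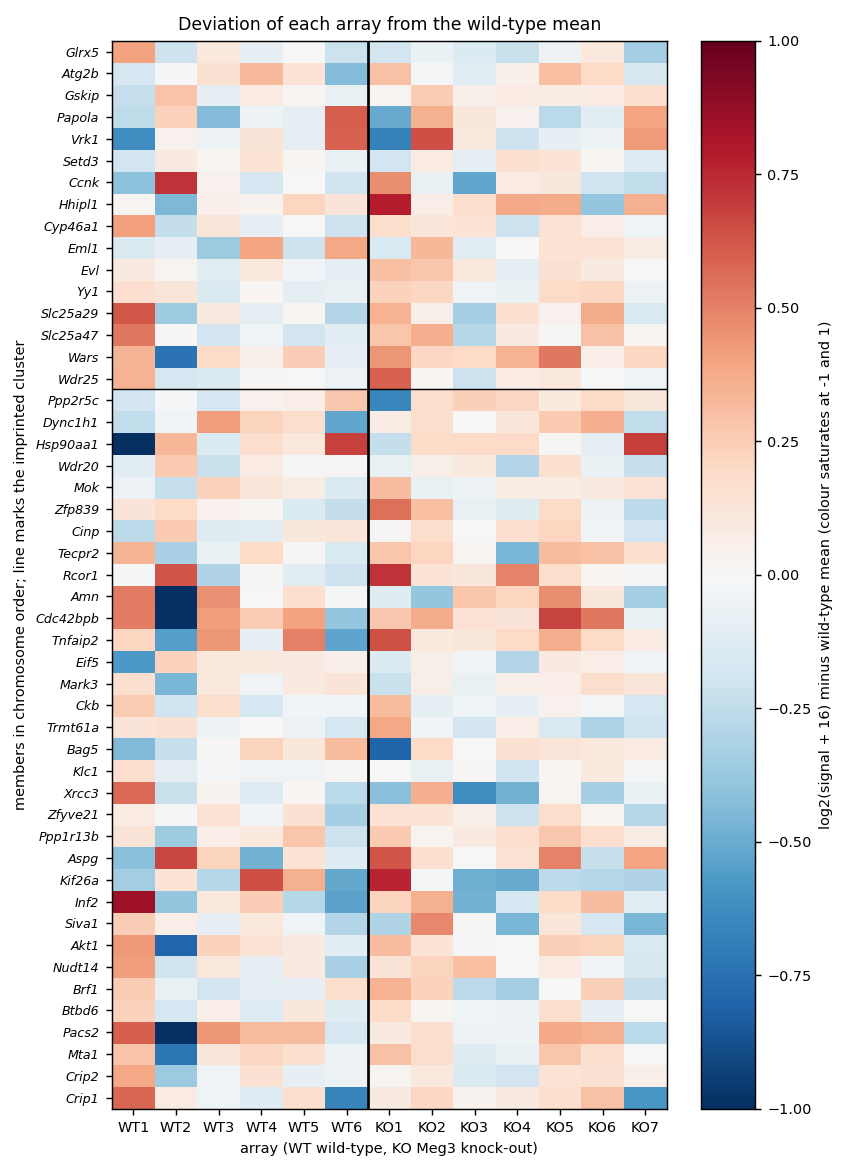
Deviation of log2(signal + 16) from the wild-type mean (colour, saturating at -1 and 1) for the 49 tested members in chromosome order (rows) in 6 wild-type and 7 knock-out arrays (columns). Deep colours gather in the columns of wild-type 1, wild-type 2 and knock-out 1, and no block of rows beside the cluster separates the genotypes.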

How the data were processed

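Whole brain RNA of 13 mouse embryos, 6 wild-type and 7 Meg3 knock-out, was measured on Affymetrix arrays from 5 µg of total RNA with one-cycle biotin labelling, per the labels' protocols. The authors deposited 1 linear intensity per probe set. Software, summary method and scaling: not given in the sources used here. No read depth applies, and the number of arrays limits the precision. Of 45037 non-control probe sets, 34945 carried 1 symbol, 932 several and 9160 none in the platform annotation. The Entrez identifiers of 34741 were found in RefSeq GRCm38.p6, and 0 symbols were updated.

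From the deposited intensities, log2(signal + 16) was computed, and genes whose probe set had a mean above the 40th percentile (a signal of 56.9) entered limma (version 3.58.1, R 4.3.3; lmFit, then eBayes). Its two-sided p-values were adjusted by Benjamini-Hochberg over the 12918 genes, at a threshold of 0.05. The exact permutation test was two-sided over 1716 splits, ignoring litter (smallest possible p 0.00117). Motifs were searched with Python 3.11.15 and plots drawn with matplotlib 3.10.9. The gene test was also run on simulated data, and the outcome is not reported here.

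Litters were read from the leading number of the embryo labels. Deviations from group means correlated at a median of 0.12 (-0.11 to 0.57) in the 9 same-litter pairs of opposite genotype. In 33 pairs from different litters the median was -0.03 (-0.36 to 0.40), so the ranges overlapped. Embryos are stated to be biological replicates. Members, role groups, marker lists and tests were chosen with earlier results of these data known. Signals per array are given for the 6 members of each side and the 2 of each role group with the smallest p, the nearest member on each side, Yy1 and the 4 members with a lower mean and the smallest p, 20 members in all. Alternatives covered pseudocount, filter, scaling, probe set choice, litter, RNA quality and left-out arrays.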

Additional observations from a re-analysis of the deposited data

Results flagged for a closer look

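Within a genotype, 17 values of members lay apart from the other arrays by more than Dixon's 95% bound, over 98 groups of arrays examined (17.3%), where chance gives 4.9. Over all genes tested 14.2% of such groups held a value of this kind. Of the 17, 6 were in wild-type 2, 4 in wild-type 1 and 4 in knock-out 1. Wild-type 2 was lowest for Amn (274, next 613), Hhipl1 (69.9, next 103), Mark3 (1621, next 2175), Mta1 (855, next 1358) and Pacs2 (1091, next 2772), and highest for Rcor1 (1089, next 705). Its 3' to 5' ratio of Actb was 2.92, and the part of RNA quality in these values was not tested. Wild-type 1 was lowest for Eif5 (3546, next 5478) and highest for Slc25a47 (299, next 204), Wdr25 (146, next 112) and Xrcc3 (113, next 73.4), at an Actb ratio of 1.34. Knock-out 1, at a ratio of 1.81, was lowest for Bag5 (574, next 1012) and Ppp2r5c (1331, next 2259), and highest for Kif26a (970, next 562) and Wdr25 (176, next 121). The other 3 values were Crip1 in knock-out 7 (285, next 446), Tecpr2 in knock-out 4 (428, next 607) and Zfyve21 in wild-type 6 (524, next 652).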

How the results depend on the processing

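The count of members past the threshold was 0 in all 32 alternatives, and 0 to 2 members reached an unadjusted p under 0.05. The smallest such p of a member described by array was 0.00495, for the brightest Rcor1 probe set. It came with the Actb ratio as a covariate (limma adjusted p = 0.999, log2 change 0.37). Over all genes 3 passed, 2 with the filter at the 60th percentile, 3 to 4 with 1 array left out, and 16 of 23451 in the test of all named probe sets. The members' median log2 change moved to -0.14 after median centring, when that of all genes was -0.15; their difference ranged from -0.02 to 0.04 over the alternatives. With litter as a replicate block the members' median was 0.05, and with the title number as a block it was 0.07; neither changed a call. Signs of single members turned as follows, none of them past the threshold. Median centring gave -0.046 for Ppp1r13b, -0.076 for Evl, -0.091 for Gskip, -0.10 for Yy1, -0.077 for Tecpr2, -0.12 for Atg2b, -0.12 for Wdr25, -0.15 for Cinp and -0.14 for Ppp2r5c. Quantile normalization gave -0.026 for Atg2b, -0.11 for Wdr25 and -0.0043 for Cinp, and an equal trimmed mean -0.0053 for Cinp and -0.0024 for Ppp2r5c. Leaving out wild-type 2 and knock-out 1 gave -0.043 for Wdr25. Leaving out 1 array at a time gave -0.0022 to 0.10 for Cinp, -0.0077 to 0.14 for Atg2b and -0.01 to 0.14 for Wdr25. Leaving out a litter gave 0.0066 for Trmt61a and -0.019 for Ppp2r5c (219), -0.051 for Ppp2r5c (238) and 0.14 for Kif26a (250). Litter 148 is knock-out 1 alone, so leaving it out is the same run that gave -0.01 for Wdr25. The causes were not tested.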
